A study of Arabidopsis thaliana with 9 samples.

Results

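The genes described are 9 cell cycle and DNA replication genes of Arabidopsis thaliana, all found among the 17680 genes measured. They were chosen by their locus codes for their known roles, with earlier results of these data known. They are the mitotic cyclins CYCB1;1 (AT4G37490) and CYCB1;2 (AT5G06150), the cyclin-dependent kinases CDKB1;1 (AT3G54180) and CDKB2;1 (AT1G76540), the D-type cyclin CYCD3;1 (AT4G34160), the replication proteins PCNA1 (AT1G07370), MCM2 (AT1G44900) and MCM5 (AT2G07690), and the cytokinesis syntaxin KNOLLE (AT1G08560, SYP111 in RefSeq). Plant gene names with a semicolon are written below in the hyphenated form that protein databases use, so that CYCB1;1 is CYCB1-1. The mRNA of all 9 was more abundant in seedlings kept in continuous white light than in dark-grown seedlings, from 1.33-fold for MCM5 to 3.52-fold for CYCB1-1. After the first hour of red light 8 of the 9 were above their dark level, by at most 1.79-fold, and none by the 2-fold used here as the size of a called difference.

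A plant cell that divides passes from G1 through DNA replication (S phase) and G2 into mitosis, and splits by building a cell plate between the daughter nuclei. D-type cyclins act at the G1 to S step by releasing E2F transcription factors from the retinoblastoma-related protein, and E2F factors switch on replication genes. Mitotic genes are switched on later, many of them by MYB3R factors that bind mitosis-specific activator (MSA) elements. Light opens the cotyledons in seedlings that had been elongating their hypocotyls in darkness, and starts growth of the shoot apex and the first leaves, which needs cell division.

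Wild-type seedlings of the Columbia-0 accession were compared in 3 groups of 3 libraries each. D seedlings grew for 2 days in darkness at 21ºC after light induction of germination (3 h of white light) and a far-red pulse of 5 min, which returns active phytochrome to its inactive form. R1h seedlings had the same start and were moved after 47 h in the dark into red light (10 µE m−2 s−1) for 1 h, and WLc seedlings spent 2 days under constant white light of 100 µE m−2 s−1, with neither the light induction nor the far-red pulse named for them. Seeds of all groups were stratified for 4 days in the cold, and the sources differ on whether this came before or after the germination light. No mutant, transgene or chemical was involved, and whole seedlings were ground, so that fewer dividing cells and less mRNA per dividing cell cannot be told apart. The D and R1h comparisons ask how the genes respond to a first light exposure, and WLc serves as the profile of growth in prolonged light.

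Levels are pseudo-counts, that is, read counts over the last 500 bases of each transcript adjusted by the authors to one common library size. The values of each group are the authors' mean over its 3 libraries, so no spread between libraries, and no test against it, can be given. Each group summed to between 11.4 M (D) and 12.5 M (WLc) pseudo-counts. Each value was converted into an approximate number of reads, and the 95% intervals below are exact binomial (Clopper-Pearson) intervals of a ratio given those reads. They cover counting error only and would be wider with the variation between seedling batches. They also take the deposited scale of each group as given. Because only the last 500 bases were counted, levels are comparable between genes as counts per 3′ end, apart from unequal uniqueness of these ends. The shoot meristem gene STM was present in every group (34.7 to 61.7 pseudo-counts), as were SCR (168 to 186) and SHR (277 to 360), which are expressed in the root and also in the shoot, while the root meristem genes PLT1, PLT2 and WOX5 lay near the minimum level of 10 or under it (3.27 to 12.4).

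The promoters of 6 members held short words known as binding sites of cell cycle factors, and their surroundings are shown because words known for S phase and for mitosis stood in different members. The window ran from 250 bases before to 50 bases after the start annotated by RefSeq (build TAIR10.1), and was searched on both strands for the MSA core AACGG, the E2F element (TTTCCCGC, TTTGGCGC, TTTCGCGC or TTTGCCGC), site II (GGCCCA), a word common in promoters of proliferation genes, and the G-box CACGTG, which phytochrome-interacting factors and HY5 bind. Each line runs 5′ to 3′ on the strand of the gene, with the matched word in capitals (CCGTT is AACGG read on the other strand), and ends before the start of the transcript.

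CYCB1-1, chr4:17624460-17624488: agaataagtgggCCGTTgtgacttcaaaa
CYCB1-1, chr4:17624353-17624381: aaaacaatcagaCCGTTggggttcattta
CYCB1-1, chr4:17624309-17624333: tatttcttataaAACGGctcatcgt
CYCB1-2, chr5:1861830-1861858: tatttacagtccAACGGcctcattcgatg
CYCB1-2, chr5:1861756-1861784: ctaacctatccaCCGTTagatctaaaatt
CYCB1-2, chr5:1861730-1861758: atttaatcatctAACGGcaacagatgaaa
CYCB1-2, chr5:1861704-1861726: ccaaaaatatgaCCGTTggaatt
KNOLLE, chr1:2711001-2711024: caaatggacgacAACGGatacatc
CYCD3-1, chr4:16357264-16357292: ttaactttaagaAACGGaacttatcggcg
MCM2, chr1:16970188-16970213: ttggcgccaataTTTCCCGCctaatc
MCM5, chr2:3527501-3527531: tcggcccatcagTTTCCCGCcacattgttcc

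The MSA core stood in 4 of the 9 windows, with 3 matches in CYCB1-1, 5 in CYCB1-2, 3 in KNOLLE and 1 in CYCD3-1, so that 3 of the 4 are genes of mitosis and cytokinesis. It is a short word, present in 24.7% of the windows of all 27443 protein-coding genes. The E2F element stood in the windows of both MCM genes, as TTTCCCGC on the gene's own strand, beginning 14 bases before the start of MCM2 and 19 before that of MCM5, against 1.76% of all windows. Site II occurred in CYCB1-1, MCM2 and MCM5 (15.5% of all windows), and in CYCB1-1 it overlaps the first MSA core shown, since the letters TGGGCCGTT hold both. The G-box occurred in none of the 9 windows, against 7.68% of all. CDKB1-1, CDKB2-1 and PCNA1 held none of the 4 motifs in this window. A match is a description of the letters and shows no binding.

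**Figure D1:**
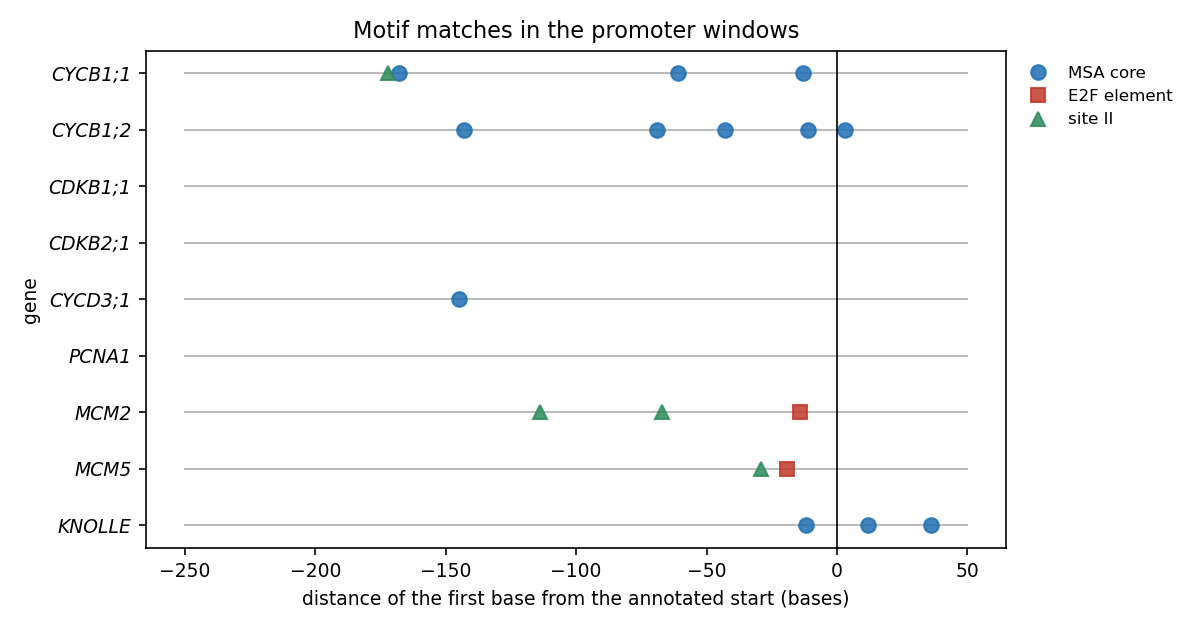
Positions of motif matches in the promoter windows of the 9 genes. The x axis is the distance in bases of the first base of a match from the annotated transcript start (vertical line), and each row is 1 gene, with circles for the MSA core, squares for the E2F element and triangles for site II. The E2F element is seen only in MCM2 and MCM5, and repeated MSA cores are seen in CYCB1-1, CYCB1-2 and KNOLLE.

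The mitotic cyclins had the largest differences between light-grown and dark-grown seedlings. B1-type cyclins accumulate from G2 until anaphase and activate the kinases that drive entry into mitosis, and a CYCB1-1 reporter is the usual marker of dividing cells. CYCB1-1 (chromosome 4, 17621886 to 17624308, minus strand, TAIR10.1) stood at 5.67 pseudo-counts in D, 10.1 in R1h and 19.9 in WLc. These values rest on about 17, 31 and 61 reads, which makes it the least abundant and least precisely measured of the 9. Its WLc to D ratio was 3.52 (95% interval 2.04 to 6.46), and its R1h to D ratio of 1.78 had an interval of 0.974 to 3.50, which includes no difference. WLc exceeded R1h 1.98-fold (1.24 to 3.10), so that the order of levels was D, R1h, WLc with D and R1h not separated by counting error. Its dark level lay under the minimum of 10 set for a test of size, so CYCB1-1 entered that test through R1h and WLc, where it was higher.

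CYCB1-2 (chromosome 5, 1859279 to 1861703, minus strand, CYC1BAT in RefSeq) was more abundant, at 47.1 pseudo-counts in D, 61.3 in R1h and 136 in WLc. The order of levels was again D, R1h, WLc, with both neighbouring ratios above 1 beyond counting error, 1.30 for R1h to D (1.04 to 1.63) and 2.21 for WLc to R1h (1.85 to 2.64). WLc was 2.88-fold D (2.37 to 3.51), the only ratio of the 9 other than that of CYCB1-1 whose whole interval lay above 2. CYCB1-1 remained the minor cyclin of the pair in each group, at 0.120 of the CYCB1-2 level in D, 0.165 in R1h and 0.147 in WLc.

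B-type cyclin-dependent kinases exist only in plants and green algae and act around the G2 to M transition. CDKB1-1 (chromosome 3, 20059671 to 20061488, plus strand), which is also needed for divisions in the stomatal lineage, was at 62.3 pseudo-counts in D, 112 in R1h and 107 in WLc. It was the member with the largest difference after 1 h of red light, 1.79-fold (1.49 to 2.15), and only 5.14% of all genes tested had a larger one. WLc was 1.72-fold D (1.43 to 2.07) and 0.961 of R1h (0.822 to 1.12), so R1h and WLc were not separated and both lay above D. The gene on the opposite strand that overlaps its counted end, AT3G54190, was at 173, 159 and 151 in D, R1h and WLc, and 95.1% of the 50-base windows of that end occur in no other transcript.

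CDKB2-1 (chromosome 1, 28720328 to 28722550, minus strand) showed another order. Its levels were 97.3 in D, 109 in R1h and 166 in WLc, with 1.12-fold from D to R1h (0.958 to 1.32) and 1.71-fold from D to WLc (1.48 to 1.98). The kinases thus reached nearly the same WLc to D ratio, but CDKB1-1 stood there already after 1 h of red light whereas for CDKB2-1 the interval of the R1h to D ratio included 1. No test of that difference between the kinases was possible without values per library.

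The closest relatives of both kinases gave WLc to D ratios near theirs. CDKB1-2 was at 13.4 pseudo-counts in D, 15.0 in R1h and 23.5 in WLc, with a WLc to D ratio of 1.75 (1.16 to 2.60) and an R1h to D ratio of 1.12 (0.700 to 1.71). The ratio of CDKB1-1 to CDKB1-2 was therefore 4.63 in D (3.26 to 6.60), 7.43 in R1h (5.49 to 10.5) and 4.56 in WLc (3.52 to 5.96), highest in R1h but with overlapping intervals. CDKB2-2 was at 40.3, 51.1 and 71.0, 1.76-fold D in WLc (1.40 to 2.21), and the ratio of CDKB2-1 to CDKB2-2 stayed between 2.14 and 2.41. Only 62.3% of the windows of CDKB1-2 and 68.3% of those of CDKB2-2 occur in no other transcript, which can lower the counts of both.

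CYCD3-1 (chromosome 4, 16357421 to 16359565, plus strand), a cytokinin-responsive D-type cyclin that promotes the G1 to S step, was the most abundant member in every group. It stood at 217 pseudo-counts in D, 251 in R1h and 400.6 in WLc. The levels followed that order, with ratios of 1.16 for R1h to D (1.04 to 1.29) and 1.59 for WLc to R1h (1.46 to 1.75), both intervals above 1. WLc was 1.85-fold D (1.68 to 2.03).

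**Figure D2:**
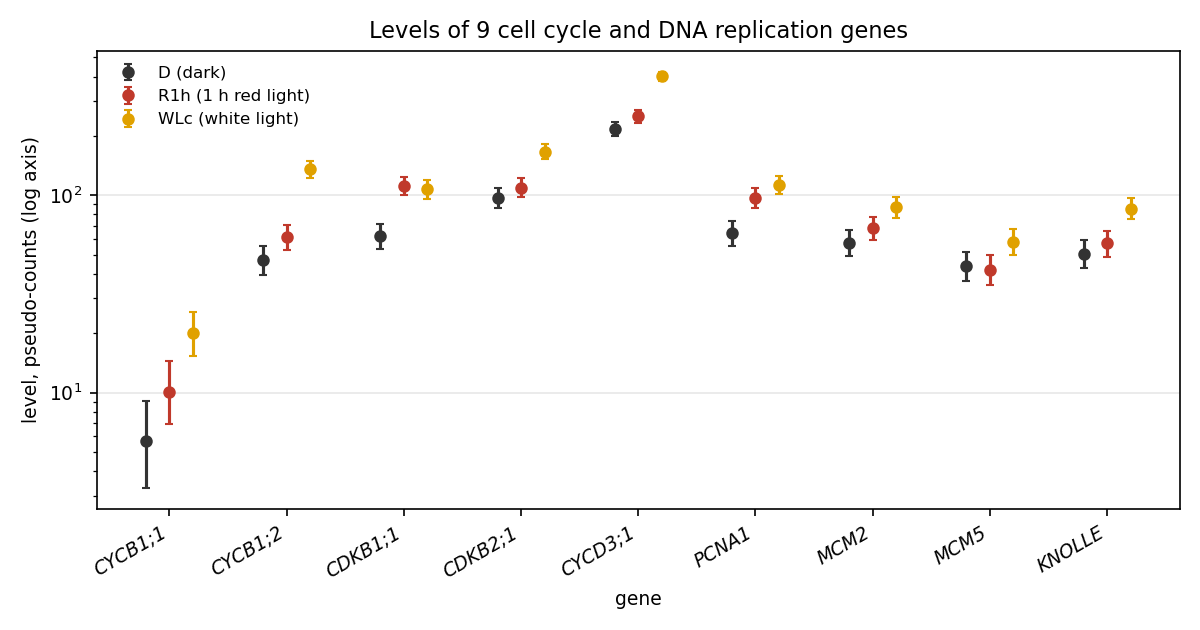
Levels of the 9 genes in D, R1h and WLc, in pseudo-counts on a log axis. Each point is the authors' mean of 3 libraries and the bars are 95% exact Poisson intervals of the approximate reads, which cover counting error only. CYCB1-1 lies lowest (5.67 to 19.9) and CYCD3-1 highest (217 to 400.6), and the WLc point is the highest of the 3 for every gene but CDKB1-1.

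The replication genes gave smaller ratios than the mitotic cyclins. PCNA1 (chromosome 1, 2263037 to 2264553, plus strand) encodes the sliding clamp that holds DNA polymerase on its template. It was at 64.2 pseudo-counts in D, 97.0 in R1h and 113 in WLc, 1.51-fold D after red light (1.25 to 1.82) and 1.76-fold D in white light (1.47 to 2.11). R1h and WLc were not separated, with a ratio of 1.16 (0.994 to 1.36), so PCNA1, like CDKB1-1, stood closer to its white-light level than to its dark level after 1 h. Its paralog PCNA2 was more abundant, at 322 in D, 394 in R1h and 352 in WLc, and its WLc to D ratio was 1.09 (0.999 to 1.19). PCNA1 accordingly amounted to 0.199 of PCNA2 in D (0.170 to 0.233), 0.247 in R1h (0.216 to 0.280) and 0.321 in WLc (0.284 to 0.363), with the D and WLc intervals apart. For PCNA2, 49.0% of the windows are unique in the annotation, the rest overlapping ENOC on the opposite strand.

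MCM2 and MCM5 are subunits of the MCM2-7 ring, the helicase that is loaded onto replication origins in G1 and unwinds DNA in S phase. MCM2 (chromosome 1, 16970214 to 16974753, plus strand) was at 57.5 pseudo-counts in D, 68.1 in R1h and 87.2 in WLc. Its R1h to D ratio of 1.18 (0.964 to 1.46) included 1, and its WLc to D ratio was 1.52 (1.25 to 1.85). MCM5 (chromosome 2, 3522984 to 3527500, minus strand) was at 43.6 in D, 42.0 in R1h and 58.0 in WLc, the smallest light-grown ratio of the 9 at 1.33 (1.05 to 1.68). It was the only member below its dark level in R1h, at 0.963 (0.745 to 1.23), a difference not detectable at this depth.

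The other subunits of the ring were unequal in level. Over the 6 genes MCM2 to MCM7, levels ran from 25.2 (MCM6) to 296 (MCM7) in D, from 36.8 to 405 in R1h and from 46.5 to 398 in WLc. The sum of the 6 was 633 in D, 843 in R1h and 917 in WLc. MCM3 stood at 116 in D, at 167 in R1h and at 207 in WLc, whereas MCM4 (93.9, 124 and 120) and MCM7 had nearly the same level in R1h and WLc. The R1h to D intervals of MCM3 (ratio 1.43), MCM4 (1.32), MCM6 (1.46) and MCM7 (1.37) lay above 1. Those of MCM2 and MCM5 included 1. The ratio between the most and the least abundant subunit was 11.8 in D and 8.56 in WLc.

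KNOLLE (chromosome 1, 2709525 to 2711000, minus strand) encodes the syntaxin that fuses vesicles at the growing cell plate. It was listed at 50.4 pseudo-counts in D, 57.0 in R1h and 85.6 in WLc, with ratios to D of 1.13 in R1h (0.906 to 1.42) and 1.70 in WLc (1.39 to 2.09). D and R1h were not separated, and WLc lay above both. Only 7.98% of the 50-base windows in its counted end are unique in the RefSeq transcripts, since the rest lies opposite NPQ1 (AT1G08550), the violaxanthin de-epoxidase of the xanthophyll cycle. NPQ1 was at 298, 321 and 493, with a WLc to D ratio of 1.65 (1.52 to 1.80), and KNOLLE amounted to 0.169, 0.177 and 0.173 of NPQ1 in D, R1h and WLc. The sharing is on the opposite strand only (0% on the same strand), and only reads of the coding strand were counted. The overlap can lower or otherwise alter the KNOLLE count, and its effect on the ratios was not tested. KNOLLE is the least certain of the 9 in this respect. It is kept in the sums, medians and shares of the 9 below, which were not recomputed without it. For the 7 members other than KNOLLE and CDKB1-1, 100% of the windows are unique.

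**Figure D3:**
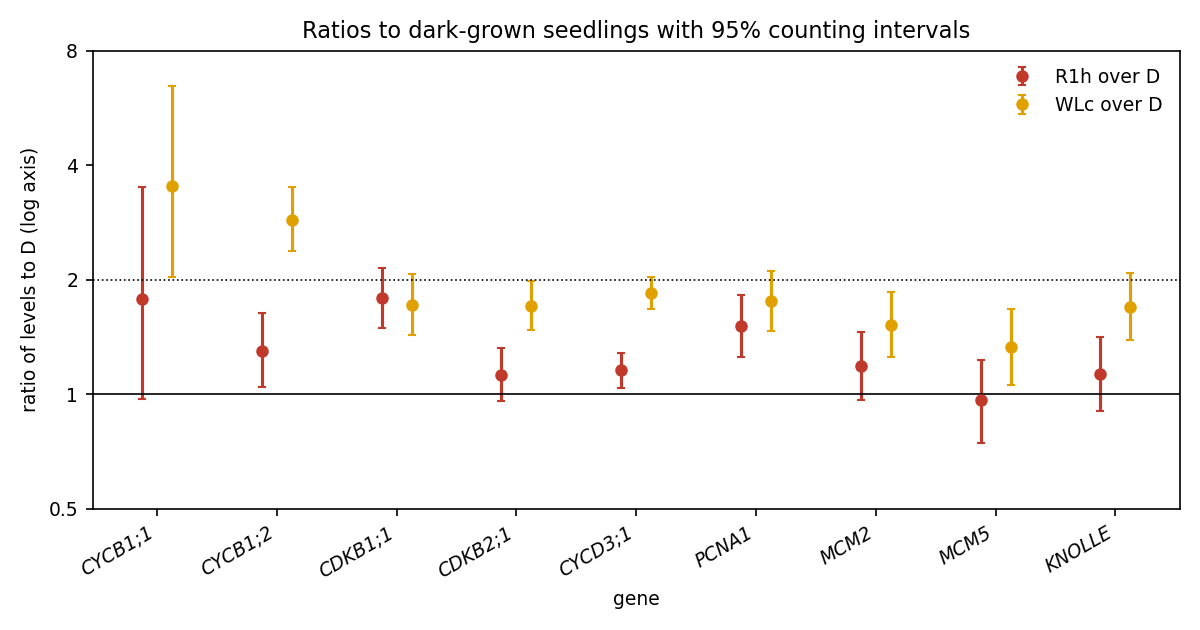
Ratios of R1h to D and of WLc to D for the 9 genes on a log axis, with 95% counting intervals (exact binomial). The solid line marks 1 and the dotted line 2. On the deposited scale all WLc intervals lie above 1, and those of CYCB1-1 and CYCB1-2 lie wholly above 2. The R1h intervals of CYCB1-2, CDKB1-1, CYCD3-1 and PCNA1 lie above 1 on that scale.

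Counted as a set, the 9 genes were set against all 17299 genes with at least 10 pseudo-counts in at least 1 group, on differences of log2(pseudo-counts + 1), which come out too small for genes with few reads. Between WLc and D, 2 of 9 members (CYCB1-1 at 1.65 and CYCB1-2 at 1.51) were called higher at 2-fold and none lower, while 13.9% of all genes were called higher and 10.7% lower. That count is near the background. The other 7 lay between 0.40 (MCM5) and 0.88 (CYCD3-1), below the 2-fold line. The median of the 9 was 0.77 on the log2 scale against 0.02 over all genes, and 9 of 9 against 51.3% of all genes were above 0. The counting interval lay wholly above 1 for 9 of 9 members, and for 37.5% of all genes it lay above 1 and for 36.2% below. These intervals were not rescaled to equal group totals, which would take the lower limit of MCM5 (1.05) below 1. The 9 were chosen with earlier results of these data known, so these contrasts only describe the set. CYCB1-1 was exceeded by 6.90% of all genes in this comparison and MCM5 by 30.6%.

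Between R1h and D, 0 of 9 members were called in either direction, against 3.89% of all genes called higher and 2.46% called lower. The log2 differences ran from -0.05 (MCM5) to 0.83 (CDKB1-1), with a median of 0.24 against 0.003 over all genes, and 8 of 9 members against 50.4% of all genes were above 0. The interval lay above 1 for 4 members (CYCB1-2, CDKB1-1, CYCD3-1 and PCNA1), whereas 28.1% of all genes had an interval above 1 and 25.0% below. Without rescaling to equal group totals, the lower limits of CYCB1-2 and CYCD3-1 were both only 1.04. Such rescaling would take both below 1. CDKB1-1, CYCB1-1 and PCNA1 were exceeded by 5.14%, 6.32% and 8.86% of all genes, and CDKB2-1, KNOLLE and CYCD3-1 by 28.9% to 33.2%. Both comparisons use the same D values, so they are not independent of each other.

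Between WLc and R1h, 1 of 9 members, CYCB1-2, was called higher (1.13 on the log2 scale) and none lower, with 12.0% of all genes called higher and 10.0% lower. The median of the 9 was 0.58 against 0.03 over all genes. CDKB1-1 was the member below 0 (-0.06), and 7 members had an interval above 1, against 36.5% of all genes above and 35.5% below. Without CYCB1-1, the gene with the fewest reads, the medians were 0.22 for R1h to D, 0.77 for WLc to D and 0.52 for WLc to R1h.

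**Figure D4:**
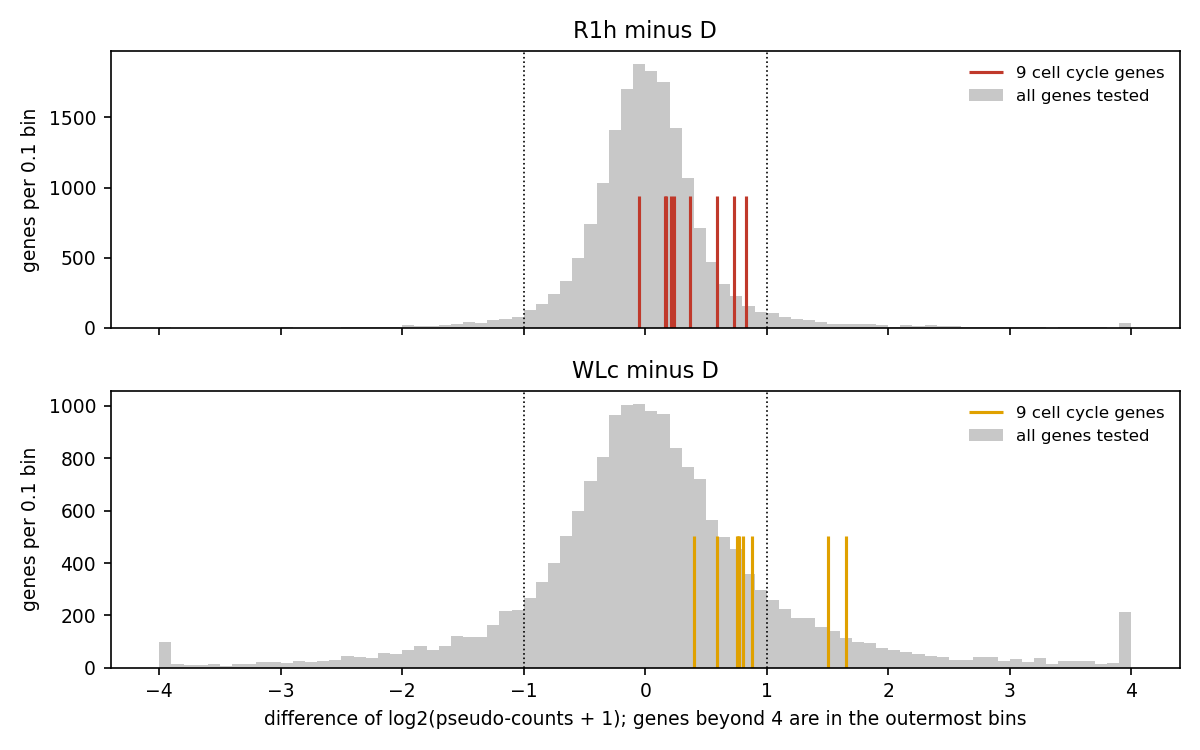
Distribution of log2 differences over all 17299 genes tested (grey, genes per bin of 0.1) for R1h minus D (top) and WLc minus D (bottom), with 1 vertical line for each of the 9 genes. Dotted lines mark 2-fold and the outermost bins hold all genes beyond 4. In WLc minus D all 9 lines lie to the right of 0, from 0.40 to 1.65, and in R1h minus D they run from -0.05 to 0.83.

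Summed over the 9 genes, the levels were 645 pseudo-counts in D, 807 in R1h and 1173 in WLc. Grouped by phase, the 5 genes of G2 and mitosis (CYCB1-1, CYCB1-2, CDKB1-1, CDKB2-1 and KNOLLE) gave a ratio of sums of 1.96 for WLc to D (1.80 to 2.14). The 3 genes of S phase (PCNA1, MCM2 and MCM5) gave 1.56 (1.39 to 1.75), so the counting intervals of the groups did not overlap. For R1h to D the ratios were 1.33 (1.21 to 1.46) and 1.25 (1.11 to 1.41), with overlapping intervals. That gap rests on the cyclins. In a comparison chosen after the values were seen, CDKB1-1, CDKB2-1 and KNOLLE without the cyclins gave 1.71 (1.55 to 1.89), which overlaps the interval of the S phase genes. Each sum weights its genes by level, and single genes ranged from 1.70 to 3.52 in the first group and from 1.33 to 1.76 in the second for WLc to D.

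The wider cell cycle machinery was described with 138 further genes on 9 lists by role, of which 115 were in the table and 113 were tested. Between WLc and D, 24 of them were called higher and 2 lower, with 90 above 0 and a median of 0.45 on the log2 scale, against 13.9% higher, 10.7% lower and 51.3% above 0 over all genes. Of the 24, 7 lay under the minimum level of 10 in D, and 4 of these (KRP3, CDT1B, CDC20.2 and POK2) reached it only in WLc. Such genes entered the test through the groups where they were higher, so their calls are descriptions of size only. The list medians and counts above 0 include genes of this kind, so they too are descriptions only. Between R1h and D, 1 was called higher and none lower, with a median of 0.24 (3.89% of all genes higher), and between WLc and R1h 17 were called higher and 3 lower (12.0% and 10.0% of all genes). By list medians, genes of the last steps of division stood highest in WLc relative to D, and the other D-type cyclins and the inhibitors were mixed in direction.

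Among the genes of the cell plate and cytokinesis, 7 of 14 tested were called higher in WLc than in D and none lower. The shares of all genes were 13.9% and 10.7%, and the list median was 1.02. Of the 7, 2 lay under the minimum level in D. The median also includes POK1, which was not called and reached that level only in WLc. MKK6, a kinase of the cytokinesis MAP kinase cascade, was at 18.8 pseudo-counts in D, 15.6 in R1h and 51.2 in WLc, and HINKEL, the kinesin that activates the cascade, at 45.6, 76.0 and 133. PAKRP2, a phragmoplast kinesin, was at 7.49, 11.8 and 27.5, and POK2, a kinesin that helps place the division plane, at 4.83, 7.89 and 25.7. These 4 were named as the called genes of the list with the largest differences in any comparison, and all 4 were highest in WLc. In HINKEL alone of these 4 the R1h to D interval (1.34 to 2.06) lay above 1. The list was not uniform, since 3 of its 14 genes had WLc to D intervals wholly below 1. They are genes of membrane fusion, NPSN11 (375 in D and 187 in WLc, ratio 0.499, 0.450 to 0.552), KEULE (621 and 463, 0.745, 0.694 to 0.798) and SNAP33 (255 and 169, 0.662, 0.591 to 0.741), named here after their values were seen. They are among the abundant genes of the list, whose sum was 1538 in D, 1530 in R1h and 1435 in WLc.

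Among the genes of the spindle, the kinetochore and the anaphase-promoting complex, 6 of 15 were called higher in WLc than in D and none lower. The shares of all genes were 13.9% and 10.7%, and the list median was 0.79. The named genes include 3 activators of the anaphase-promoting complex, the ubiquitin ligase that ends mitosis by marking B-type cyclins for destruction. CDC20.1 was at 47.4 pseudo-counts in D, 54.7 in R1h and 175 in WLc, CCS52B at 21.7, 25.5 and 82.8, and CDC20.2 at 4.39, 7.18 and 23.5, the last with 6.87% of its windows shared with CDC20.1. CDC20.2 reached the minimum level only in WLc, as did AUR3, which the list median also includes. TPX2, a spindle assembly factor, was at 10.2, 12.2 and 31.0. The WLc to D ratios of these activators were 3.70 for CDC20.1 (3.07 to 4.47), 3.81 for CCS52B (2.87 to 5.03) and 5.36 for CDC20.2 (3.00 to 10.7). The other activators on the list, CCS52A1 (16.0, 13.4 and 14.8) and CCS52A2 (33.4, 26.4 and 29.7), gave 0.927 (0.601 to 1.42) and 0.890 (0.661 to 1.19), so that 3 of the 5 were higher in WLc.

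Of 10 other A- and B-type cyclins, 3 were called higher in WLc than in D and none lower (all genes 13.9% and 10.7%). Their median was 0.50, with 6 WLc to D intervals above 1 and 1 below, that of CYCA3-2 (0.454 to 0.717). CYCB1-3 was at 32.0, 43.7 and 98.0 pseudo-counts in D, R1h and WLc, CYCA1-1 at 84.2, 115 and 253, and CYCB2-1 at 6.63, 11.2 and 22.0. Their log2 differences of 1.58 to 1.59 lie between those of CYCB1-2 and CYCB1-1. Of 7 other D-type cyclins, 1 was called higher, near the 13.9% of all genes, with a median of -0.09. Their WLc to D intervals lay above 1 for 3 and below 1 for 3. The latter were CYCD1-1 (ratio 0.510), CYCD4-1 (0.474) and CYCD4-2 (0.582). The closest paralogs of CYCD3-1 stood above their dark level as it did. CYCD3-3 was at 226, 312 and 350.4, with a WLc to D ratio of 1.55 (1.41 to 1.71), and CYCD3-2 at 195, 286 and 236, with 1.21 (1.09 to 1.35). CYCD5-1 was at 27.3, 26.2 and 57.0, and CYCD4-1 was lower in WLc (7.74) than in R1h (19.5) and D (16.3), called at -1.23 on the log2 scale against R1h.

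None of 7 other kinases and kinase subunits was called between WLc and D, against 13.9% of all genes higher and 10.7% lower. Their median was 0.48, with 4 intervals above 1 and 2 below. Those below were CDKA-1 (ratio 0.700, 0.597 to 0.824) and CDKF-1 (0.804, 0.718 to 0.896). CDKD-3, a kinase that activates other cyclin-dependent kinases, was at 26.4, 24.9 and 51.8 and was called against R1h (1.03). Of 13 inhibitors, WEE1 included, 1 was called higher and 2 lower in WLc than in D (13.9% and 10.7% of all genes). Their median was 0.17. SIM, an inhibitor that blocks division in cells that go on to replicate their DNA without mitosis, was abundant in D (1362 pseudo-counts) and R1h (1560) and low in WLc (434), 0.319 of D (0.299 to 0.339). Its relative SMR3 was at 140, 120 and 65.0. KRP3 was called higher, at 6.58, 8.07 and 15.5, and reached the minimum level only in WLc.

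Of 11 E2F, retinoblastoma and MYB3R regulators, 2 were called higher in WLc than in D, against 13.9% of all genes. They were E2FA, an activating E2F factor (15.8, 19.9 and 41.0), and MYB3R4, an activator of mitotic genes through the MSA element (36.7, 45.8 and 92.2). The median of the 11 was 0.37. Among 17 genes of replication licensing and initiation, 2 were called higher and none lower, a share below the 13.9% of all genes, with a median of 0.44. Both were under the minimum level in D. These were CDT1B, a loading factor of the MCM ring (5.95, 4.93 and 22.8), and PSF3, a subunit of the GINS complex (3.98, 13.7 and 16.7). PSF3 was also the gene called between R1h and D (1.57 on the log2 scale), and is uncertain because 44.4% of its windows are shared with AT3G55490. The R1h minus D median of these 17 genes was 0.42. Of their R1h to D intervals, 9 lay above 1 and 0 below, against 28.1% and 25.0% of all genes. Of 19 genes of the replication fork and nucleotide supply, 2 were called higher and none lower, again below the share of all genes, with a median of 0.43. They were POLE1, the catalytic subunit of DNA polymerase epsilon (10.8, 13.0 and 25.0), and RNR2A, a small subunit of ribonucleotide reductase (14.8, 18.8 and 32.4).

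**Figure D5:**
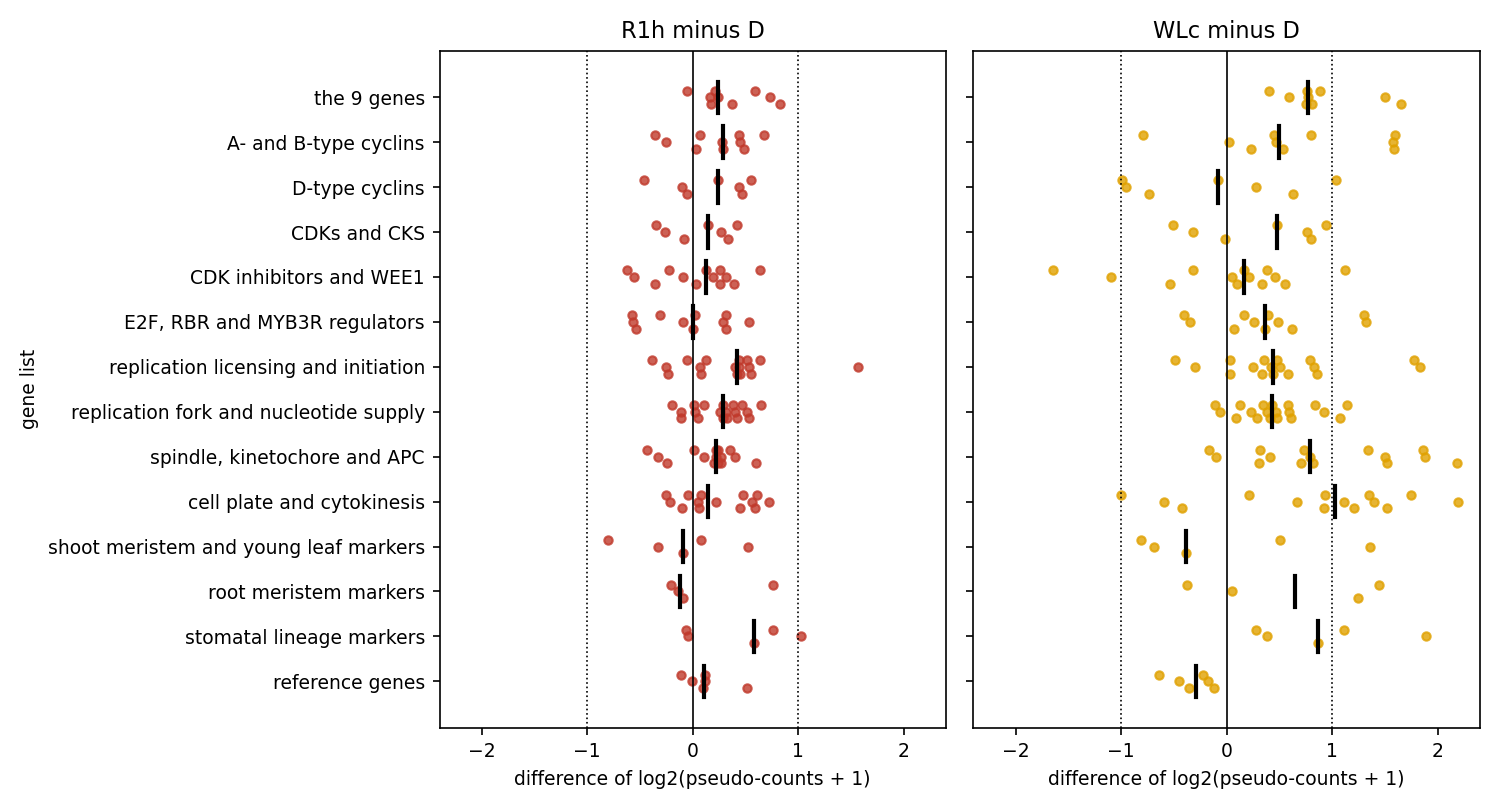
Log2 differences of single genes (points) by list for R1h minus D (left) and WLc minus D (right), with the list median as a black bar and dotted lines at 2-fold. The cytokinesis list (median 1.02), the stomatal list (0.87), the spindle list (0.79) and the 9 genes (0.77) lie farthest to the right in WLc minus D, and the reference genes lie to the left (-0.29).

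Markers of tissues that hold dividing cells also differed between the groups, and their part in the differences above was not tested. Of 5 stomatal lineage markers tested, 2 were called higher in WLc than in D and all 5 were above 0. The shares of all genes were 13.9% and 51.3%. The summed levels of the list were 260.1 pseudo-counts in D, 282 in R1h and 648 in WLc. FAMA, which controls the last division of the lineage, was at 119, 115 and 442, and BASL, which polarises its asymmetric divisions, was at 16.7, 29.2 and 37.3. EPF2, a peptide of early stomatal precursors, was at 10.8, 22.9 and 20.5 and was called higher in R1h than in D.

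Of 5 shoot meristem and young leaf markers tested, 1 was called higher in WLc (13.9% of all genes) and the median was -0.39. ANT, a growth regulator gene of young leaves, was at 73.1, 68.4 and 189, whereas the meristem genes STM (61.7, 48.8 and 34.7) and KNAT1 (322, 462 and 199) were lowest in WLc. The other young leaf genes differed in direction. AN3 was highest in WLc (477, 503 and 676), and GRF5 was highest in D (19.7, 10.8 and 14.8). The summed levels of this list were 953, 1093 and 1114. Of 4 root meristem markers tested, 2 were called higher, against 13.9% of all genes. They were PLT1 (3.63, 6.85 and 10.0) and PLT2 (3.93, 3.27 and 12.4), both of which reached the minimum level only in WLc. SHR was lower in WLc, at 0.770 of D (0.703 to 0.843), and SCR gave 1.04 (0.918 to 1.17). The sums of the list's 5 genes were 552, 509 and 494. The marker genes WUS, CLV3, SPCH and EPF1 were not among the 17680 genes with values, so their lists lack them. The 6 reference genes had a median of 0.11 in R1h and -0.29 in WLc relative to D, all 6 lying below 0 in WLc.

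The genes most like the 9 were those whose R1h minus D and WLc minus D differences lay nearest to the medians of the 9, among 13323 genes with at least 50 pseudo-counts in a group. They were AT5G66860 (distance 0.0095 on the log2 scale, 439, 516 and 754 pseudo-counts in D, R1h and WLc), the inorganic pyrophosphatase gene PPa2 (0.0099), the thylakoid translocase gene SECE1 (0.0142), AT2G31040 (0.0153) and the splicing protein gene smB (0.0160). In all, 117 genes lay within 0.1 of the medians, 4 of them other cell cycle genes. Over 3 group columns the pattern is a pair of numbers, so that such likeness is shared by many unrelated genes.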

How the data were processed

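RNA from whole seedlings was sequenced from the 3′ end, and the titles gave the groups. Bowtie was used by the authors to place single-end reads of 50 bases, without mismatches, on the TAIR9 representative transcripts, and they counted unique reads in the last 500 bases of the coding strand. The authors adjusted these reads to 1 library size with edgeR and deposited the result, a signal in pseudo-counts, as 1 mean column per group of 3 libraries, so that replicate tests could not be run. The version of either tool is not given in the sources used here.

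Values were compared as differences of log2(value + 1), with calls at 2-fold among genes with a level of at least 10 in at least 1 group. Values were divided by the mean worth of 1 read (0.331 in D, 0.330 in R1h and 0.327 in WLc), read from the smallest values, for 95% counting intervals. Those of single levels are exact Poisson intervals. With a level of 10, about 30 reads stand behind a value. Members and lists were chosen with earlier results of these data known. Besides the 9 members, the genes named were up to 4 called genes per list in any comparison by size, the closest paralogs, overlapping neighbours, tissue markers and the 5 genes most alike. The other MCM genes, CCS52A1, CCS52A2, CDKA-1, CDKF-1, CYCA3-2, CYCD1-1, CYCD4-2 and marker genes beyond the calls were named after their values were seen. Promoters and the uniqueness of 50-base windows were read from RefSeq TAIR10.1, where 17343 of 17680 locus codes matched a protein-coding gene. No coordinates come from the deposited values. Alternatives were pseudocounts of 0.5 and 5, scaling to the column total, quantile normalization, no filter on low values, 1.5-fold calls, and calls only where the whole interval passed 2-fold. Scripts were tested on simulated data (Python 3.11.15, numpy 2.4.6, pandas 2.3.3, scipy 1.17.1).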

Additional observations from a re-analysis of the deposited data

How the results depend on the processing

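Of 230 values under other settings, 209 stayed within the limits set for the same result, 21 moved and 0 reversed. All 108 values of single members were among the 209. The settings were those listed above and, for promoter words, only the 250 bases before the start or only the gene's own strand. Calling at 1.5-fold gave 3 members higher in R1h than D, 8 in WLc than D and 4 in WLc than R1h, against 8.91%, 23.7% and 22.0% of all genes. For the other cell cycle genes it gave 9 higher and 1 lower in R1h, 44 higher and 8 lower in WLc relative to D, and 35 higher and 7 lower in WLc relative to R1h. Requiring the whole counting interval past 2-fold left 0 members higher in WLc than R1h, and of the other cell cycle genes 0 higher in R1h than D, 14 higher and 1 lower in WLc than D, and 5 higher and 1 lower in WLc than R1h. Values within the limits could still differ. The other cell cycle genes higher in WLc than D numbered 24 in the main setting. They numbered 21 after scaling to the column total, 19 with a pseudocount of 5 and 18 with quantile normalization. The shares of all genes were then 12.1%, 12.3% and 12.2%. The other cell cycle genes lower in WLc than D numbered 4 with a pseudocount of 0.5 and 5 both after scaling to the column total and after quantile normalization. Those higher in WLc than R1h numbered 11 with a pseudocount of 5 and 10 with quantile normalization. Leaving the cyclins out of the 5 genes of G2 and mitosis, a choice made after seeing the data, moved their WLc to D ratio of sums from 1.96 to 1.71. On the gene's own strand alone, site II stood in 1 member. The cause of these moves was not tested, beyond the stricter or looser size of a call. Scaling to the column total moved the WLc minus D median of all genes from 0.02 to -0.11 on the log2 scale, with all 9 members still above 0. Counting intervals were not recomputed under that scaling. It divides each ratio to D by the ratio of the group totals. That takes the lower limits of MCM5 in WLc, and of CYCB1-2 and CYCD3-1 in R1h, below 1.

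No paired analysis was possible because the deposited values are 1 mean per group, although the labels number the libraries 1 to 3 in each. For the same reason leaving out each replicate was not run. Depth limits CYCB1-1 most.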

Other observations

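The promoter words differed between the lists of other cell cycle genes. The E2F element stood in 7 of 18 windows of replication licensing and initiation genes and in 5 of 19 of replication fork genes, and in 0 of 15 of spindle genes and 0 of 10 of the other A- and B-type cyclins. The MSA core stood in 9 of 14 cytokinesis windows, 9 of 15 spindle windows and 6 of 10 windows of the A- and B-type cyclins, but also in 10 of 18 licensing windows, and in 0 of 7 of the other D-type cyclins.

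Over all genes tested, presence of these words went with small differences. The 302 genes with an E2F element had a median log2 difference of 0.11 in R1h and 0.17 in WLc relative to D, and genes without it 0.004 and 0.02. The 4452 genes with an MSA core had medians of 0.02 and 0.03, and the 12529 without it 0 and 0.02. Fewer genes with the core than without it were called higher, 3.23% against 4.13% in R1h and 13.4% against 14.0% in WLc. The 950 genes with 2 or more cores had medians of 0.05 and 0.09. Of them, 3.89% were called higher in R1h and 15.3% in WLc, the latter above the share without the core. These are descriptions across genes, which are not independent replicates.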
